A study of Mus musculus with 14 samples.

Results

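Undifferentiated organoids of 3 mouse organs were set against the same organs taken as tissue, so as to describe what epithelial culture had in common across organs. The arrays were chosen by their titles: 12 of the 14 arrays of the series entered, 6 of organoids and 6 of tissue, with 2 arrays for each organ and state, and all 19938 genes that a probe set names singly were compared. Each of gallbladder, liver and small intestine was present as undifferentiated organoids and as tissue, and every sample is labelled C57BL/6, an inbred mouse strain. Per the labels, the organoids grew in Matrigel, a gel of basement membrane proteins, in a basal medium with the supplements B27 and N2 and N-acetylcysteine. The medium also held EGF, FGF10 and HGF at 50 ng/mL each, nicotinamide at 10 mM, and conditioned media with R-spondin 1, which strengthens Wnt signalling, and noggin, which blocks BMP signalling. The labels give this culture description on every sample and name no separate treatment for the tissues, so each organ's contrast joins culture, isolation of the epithelium and the absence of the rest of the organ. The other 2 arrays, of gallbladder organoids kept for 2 weeks without R-spondin 1, noggin and nicotinamide, did not enter the main comparison; they are used only in alternatives and in the closing section. Whether the 2 arrays of a group stem from different mice or cultures is not in the labels, though sex-linked genes place those of gallbladder tissue in different animals. The p-values therefore rest on the spread between the 2 arrays of each group, which outside gallbladder tissue may be technical. Those of the common comparison also take in how unequal the 3 organ differences were.

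Organoids of this kind grow from epithelial stem or progenitor cells, which the growth factors keep dividing, while the blood vessels, connective tissue, muscle and immune cells of the organ are lost. In the body most cells of liver and gallbladder rest outside the cell cycle, whereas the crypts of the small intestine divide all the time. Liver tissue is mainly hepatocytes, and liver organoids in such medium are known to resemble bile duct cells.

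Values are the deposited log2 signals, in which 1 unit is a doubling, and a difference is organoid minus tissue. Replicate arrays correlated at 0.965 to 0.998 across genes, and their pooled SD over all genes was 0.0985 to 0.136 for organoids, against 0.289 to 0.404 for tissues. The median of all genes differed little between arrays, at 7.74 to 7.93. Gallbladder tissue carried albumin (Alb), the main hepatocyte protein, at 14.3 on both arrays, as high as the 14.3 of both liver tissue arrays, against 8.05 and 9.90 in small intestine tissue. Signals this close to the top of the scale compress differences. Gallbladder tissue replicate 2 had Xist at 5.46 and the Y-linked gene Eif2s3y at 10.0, while the other 11 arrays had Xist at 11.6 to 13.5 and Eif2s3y at 3.72 to 4.0, so this array did not share the sex of the others. The 2 gallbladder tissue arrays thus came from different animals. The part of sex in the gallbladder differences was not tested.

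In the fit with organ as a covariate (limma, adjusted p under 0.05 over all genes), 3728 of 19938 genes were higher in organoids (18.7%) and 2135 were lower (10.7%). Every count of list members called below is to be read beside these shares. Among the called genes, 1327 higher ones had all 6 organoid arrays above all 6 tissue arrays, and 776 lower ones had all 6 organoid arrays below. The median difference of all genes was 0.06. A stricter set held the called genes that differed by at least 1 log2 unit in each organ without overlap of its arrays: 245 genes were higher in organoids of all 3 organs (1.23%) and 342 were lower (1.72%). The higher genes had median differences of 1.67 in gallbladder, 1.80 in liver and 1.53 in small intestine, and the lower genes -2.39, -2.79 and -1.85 in the same order of organs. The size of the difference depended on the organ for 10022 genes (50.3%; limma interaction test, adjusted p under 0.05). That test was passed by 123 of the 245 genes and by 207 of the 342, beside 50.3% of all genes. The share of the higher set was close to that of all genes. A common direction therefore did not mean equal size. Across all genes the organ differences correlated at 0.602 between gallbladder and liver, 0.333 between gallbladder and small intestine and 0.229 between liver and small intestine. Gallbladder and liver tissue both held hepatocyte transcripts, whose part in these correlations was not tested.

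**Figure D1:**
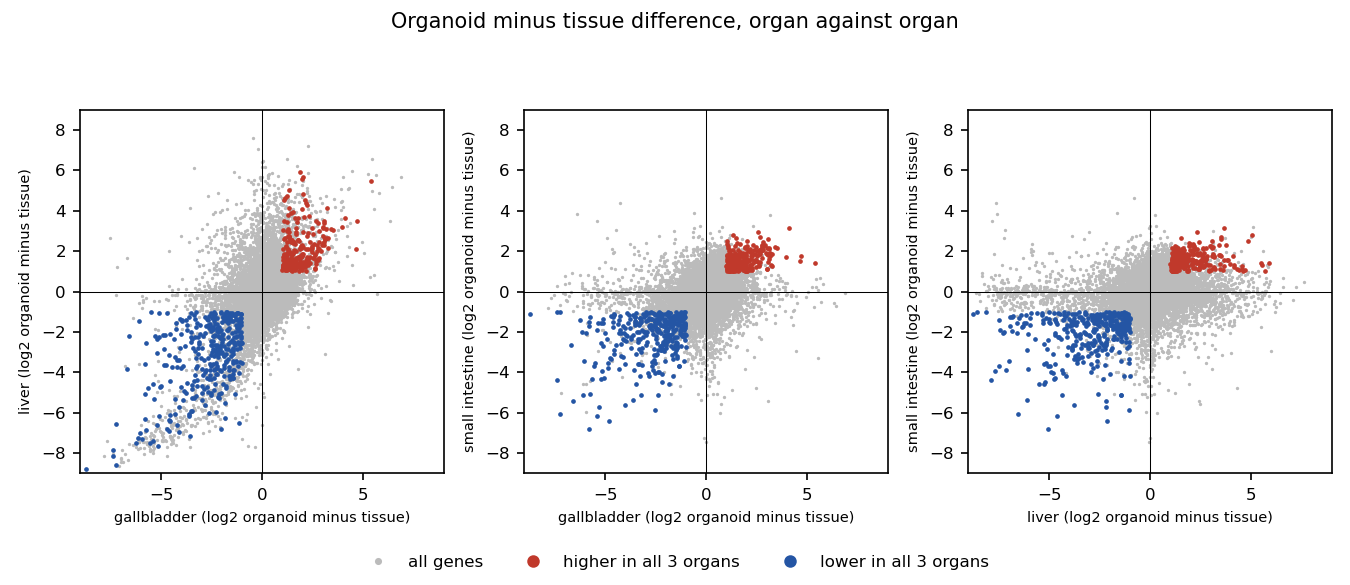
Each point is a gene, with its organoid minus tissue difference (log2) in 1 organ on the horizontal axis and in another on the vertical axis. The 245 genes higher in all 3 organs are red and the 342 lower ones are blue; grey points along the axes are genes that differed in 1 organ of the pair, and liver reached lower values than small intestine.

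The genes with the largest difference shared by all organs gave the plainest picture. The 10 highest were Psat1, Edn1, Myc, Sox4, Dctd, Asns, Mastl, Nt5dc2, Sox9 and Efna3. The 10 lowest were Dcn, Car3, H2-Aa, Cd74, Sparc, Pck1, Snord118, Serpina3n, Hsd17b6 and H2-Ab1. In each case they were chosen by the smallest of the 3 organ differences, and are not listed in that order. Only called genes without overlap between the 6 organoid and the 6 tissue arrays could be chosen. The higher group thus held an enzyme of serine synthesis, one of asparagine synthesis, a kinase that holds cells in mitosis and transcription factors of progenitor cells, and the lower group matrix, antigen presentation and liver-type metabolic genes. Since the rule chose these 20 genes by their differences, the values below describe them.

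Psat1, the second enzyme of the pathway that makes serine from glucose, had 11, 11.3 and 11.5 (lowest, median, highest) in organoids, against 7.19, 7.45 and 8.32 in tissue. No organoid array came within 2 log2 units of any tissue array, and the common difference was 3.63 ± 0.15 (SE; limma adjusted p = 8.93e-07). Myc, the growth-promoting transcription factor, had 11.5, 11.9 and 12 in organoids and 7.59, 8.73 and 9.94 in tissue, a difference of 2.95 ± 0.28 (limma adjusted p = 7.6e-05). The organoids were nearly level with each other while the tissues spread over more than 2 units.

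Sox9, a factor of progenitor and duct cells and a Wnt target, had 11.1, 11.7 and 12.1 in organoids, against 8.40, 9.18 and 9.43 in tissue, and its differences of 2.81, 2.43 and 2.44 in gallbladder, liver and small intestine did not pass the test of organ dependence (interaction adjusted p = 0.526). Edn1, which encodes the vasoconstrictor peptide endothelin 1, had 9.67, 10.1 and 10.7 in organoids, against 6.82, 6.94 and 7.72 in tissue, a difference of 3.05 ± 0.19 (limma adjusted p = 1.01e-05). Endothelin 1 is best known from endothelial cells, whose marker list had a mean signal of 6.80 to 7.0 in organoid arrays, against 7.94 to 9.77 in tissue arrays. Sox4, another progenitor factor, differed by 2.90 ± 0.19, and Efna3, a membrane ligand of ephrin receptors, by 2.41 ± 0.17, both without overlap.

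**Figure D2:**
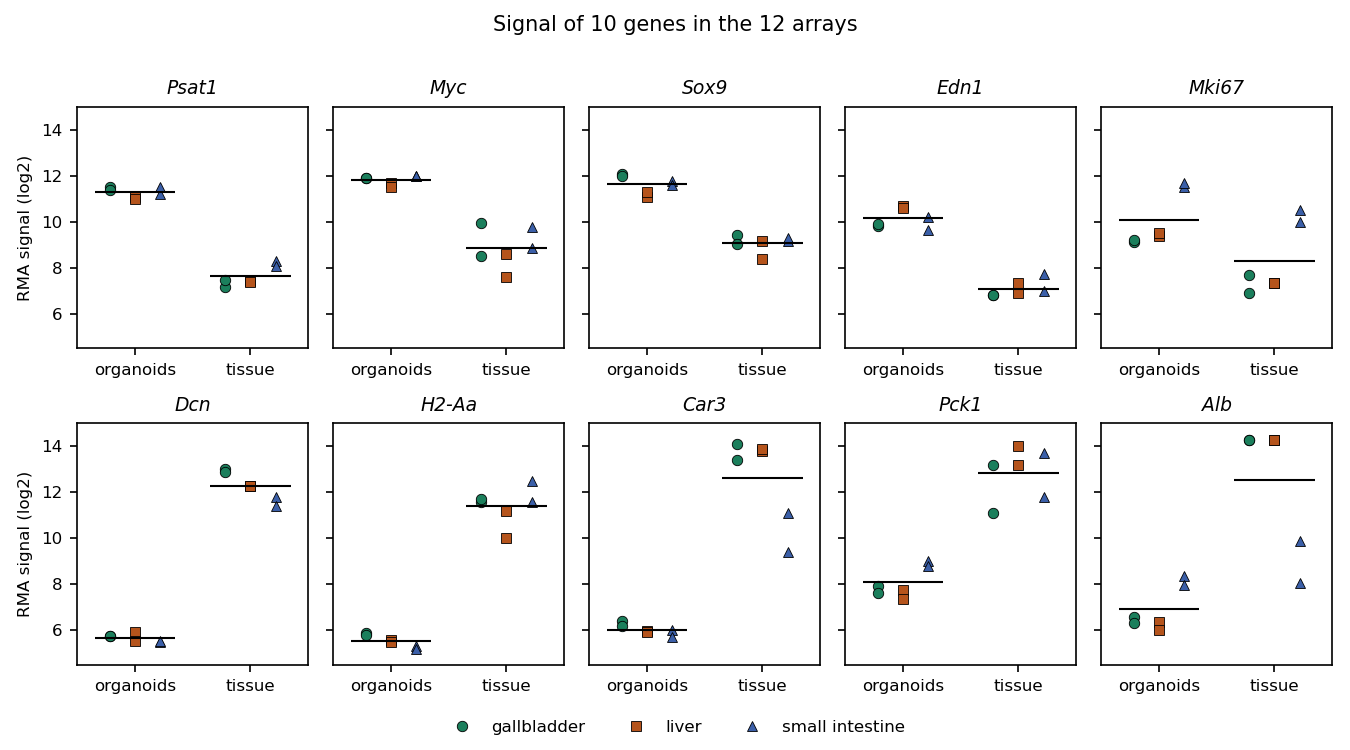
RMA signal (log2, vertical axis) of 10 genes, with organoids left and tissue right; each point is 1 array, marked by organ, and bars are the means of 6 arrays. For Psat1, Myc, Sox9 and Edn1 all organoid arrays lie above all tissue arrays and for Dcn, H2-Aa, Car3 and Pck1 all lie below; Mki67 differs within each organ but small intestine tissue lies above gallbladder and liver organoids, and Alb is high in gallbladder and liver tissue alone.

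Cell division genes rose together in the 3 organs. All 39 measured mitosis genes were called higher in organoids and none lower, where 18.7% of all genes were called higher, and 29 of the 39 passed the threshold of 1 log2 unit in every organ, against 1.23% of all genes. Their median difference was 1.82 (2.06 in gallbladder, 1.63 in liver, 1.54 in small intestine), against 0.06 for all genes. All 39 were still called higher without any 1 array.

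The proliferation marker Mki67 had 9.13 and 9.21 in gallbladder organoids against 7.68 and 6.92 in gallbladder tissue, 9.38 and 9.51 in liver organoids against 7.35 and 7.36 in liver tissue, and 11.5 and 11.7 in small intestine organoids against 10.5 and 10.0 in small intestine tissue. Arrays did not overlap within any organ, but small intestine tissue lay above the gallbladder and liver organoids. The common difference was 1.78 ± 0.16 (limma adjusted p = 5.65e-05), with no organ dependence past the threshold (interaction adjusted p = 0.199).

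Bub1, a kinase of the spindle checkpoint, differed by 3.14 in gallbladder, 2.66 in liver and 1.89 in small intestine, and Kif23, a motor that builds the cleavage furrow, by 2.06, 3.67 and 1.54. Top2a, the topoisomerase that untangles replicated chromosomes, differed by 3.13, 2.59 and 1.61 on its brightest probe set; a second, dim probe set (mean signal 3.82) differed by 0.27. Mastl, a kinase that keeps cells in mitosis, was among the 10 genes with the largest shared difference, at 2.69 ± 0.14. The differences of Bub1, Top2a and Kif23 depended on the organ (interaction adjusted p of 0.02, 0.00471 and 0.000796).

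Promoters of mitosis genes often carry a cell cycle genes homology region (CHR), read by complexes that silence these genes in resting cells and activate them before mitosis, together with CCAAT boxes. The letters searched on both strands were TTTGAA or else TTCGAA for the CHR, while the box was searched as CCAAT, in RefSeq promoters of mouse build GRCm38.p6 from 250 bases before to 50 after each start. A CHR stood in 28 of 34 promoters of 32 matched mitosis genes (82.4%), against 16.5% of 19177 promoters of measured genes, and a CCAAT box in 26 of 34 (76.5%), against 37.4%. Both stood in 73.5% of the mitosis promoters, against 6.56% of all. A match is a description of the letters and not a bound site. Promoters of a single chromosome, set beforehand, were left out when choosing which to print, but not from the counts above. Shown are the 150 bases before the start of the 4 mitosis genes with the largest common difference that hold both motifs in this stretch, with the motifs of either strand in capitals, written 5′ to 3′ on the gene's strand: Top2a (chr11:99024190-99024339, minus strand), Ect2 (chr3:27153855-27154004, minus strand), Prc1 (chr7:80294326-80294475, plus strand) and Kif11 (chr19:37376232-37376381, plus strand).
Top2a: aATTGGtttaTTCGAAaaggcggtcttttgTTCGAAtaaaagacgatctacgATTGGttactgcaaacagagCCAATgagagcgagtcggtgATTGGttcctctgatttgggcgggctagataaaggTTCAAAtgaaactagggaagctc
Ect2: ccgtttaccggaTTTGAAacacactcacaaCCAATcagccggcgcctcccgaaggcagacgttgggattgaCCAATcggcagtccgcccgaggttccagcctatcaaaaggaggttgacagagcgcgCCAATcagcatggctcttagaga
Prc1: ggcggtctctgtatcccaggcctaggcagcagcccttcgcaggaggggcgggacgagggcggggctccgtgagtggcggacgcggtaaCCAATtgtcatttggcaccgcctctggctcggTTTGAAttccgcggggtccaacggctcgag
Kif11: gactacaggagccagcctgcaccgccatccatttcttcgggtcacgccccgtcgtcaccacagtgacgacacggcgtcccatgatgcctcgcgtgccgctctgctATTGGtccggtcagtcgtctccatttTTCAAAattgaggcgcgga

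Ect2, an exchange factor that starts the cleavage furrow, Prc1, which bundles the spindle midzone, and Kif11, a motor that separates the spindle poles, differed by 2.41, 2.12 and 2.11 in the common comparison. In Prc1 the CHR begins 30 bases before the start and the CCAAT box 62 bases before it, and in Kif11 the same order holds on the other strand, with the CHR 19 and the CCAAT box 45 bases before the start. These 3 genes are outside the naming rule. They were picked, by the size of their difference, among the 10 mitosis genes with both motifs in this stretch, the left-out chromosome aside.

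DNA replication genes rose as well: 32 of 37 measured were called higher and none lower, with a median of 1.06 (1.22 in gallbladder, 0.72 in liver, 1.51 in small intestine), and 11 passed 1 log2 unit in every organ. The replicative helicase subunits led the list, with Mcm7 at 1.93 ± 0.20, Mcm6 at 1.90 ± 0.17 and Mcm3 at 1.79 ± 0.16 (limma adjusted p of 0.000123, 4.87e-05 and 4.59e-05). Dctd, a deaminase that feeds thymidine nucleotide synthesis, had 10.6, 11 and 11.4 in organoids, against 7.24, 8.09 and 9.70 in tissue. E2F sites, searched on either strand as TTCCCGC and also as TTGGCGC, along with TTCGCGC as well as TTGCCGC, through which E2F factors switch on S phase genes, stood in 24 of 38 promoters of this list (63.2%), against 12.8% of all promoters. The 2 members with the largest difference and a site in the 150 bases before the start were Mcm7 (chr5:138171267-138171416, minus strand) and Mcm6 (chr1:128359706-128359855, minus strand), shown with the sites in capitals. The chromosome left out of the printed mitosis promoters was left out of this choice too. In Mcm6 the sites that begin 109 and 46 bases before the start each overlap a site of the other strand.
Mcm7: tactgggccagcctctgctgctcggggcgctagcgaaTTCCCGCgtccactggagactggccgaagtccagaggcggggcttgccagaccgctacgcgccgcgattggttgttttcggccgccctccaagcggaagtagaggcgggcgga
Mcm6: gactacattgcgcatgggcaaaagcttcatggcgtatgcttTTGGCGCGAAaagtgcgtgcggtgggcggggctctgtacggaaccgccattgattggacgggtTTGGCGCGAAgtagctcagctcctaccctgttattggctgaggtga

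Genes of ribosome assembly, many of them MYC targets, were higher in 18 of 23 cases and lower in none, with a median of 0.80. Their rise was largest in small intestine (median 1.48) and smallest in liver (0.44); all 23 were above tissue in both gallbladder and small intestine, and 16 were in liver. Nop56, a core protein of the particles that guide rRNA methylation, differed by 1.30 ± 0.17, and Polr1b, a subunit of the polymerase that transcribes rRNA, by 1.15 ± 0.26, in neither case with overlap of the 6 organoid and 6 tissue arrays. Of 14 cell cycle brakes and quiescence genes, 2 were called higher and 1 lower, with a median of 0.12; 1 was higher without small intestine tissue replicate 2 or any 1 of the 4 liver arrays, 6 without the small intestine arrays and 0 without the liver arrays.

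Genes of amino acid supply were higher too. Among 21 measured serine synthesis and ATF4 target genes, which cells raise when amino acids are short, 13 were called higher and 1 lower, with a median of 1.60, and 9 were higher by 1 log2 unit or more in each organ. Slc7a5, the large neutral amino acid transporter, had 11.7, 11.9 and 12.2 in organoids, against 8.37, 9.11 and 9.64 in tissue, and Asns, asparagine synthetase, had 11.9, 12.8 and 12.9, against 7.92, 10.3 and 10.9. Neither gene's groups overlapped. Phgdh, the first enzyme of serine synthesis, differed by 2.6 ± 0.19 and Mthfd2, a mitochondrial folate enzyme that uses serine carbon, by 2.09 ± 0.18; both were picked after their values were seen.

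The 1 member called lower was Cth, which makes cysteine from cystathionine, at -2.98 in gallbladder, -5.90 in liver and 0.37 in small intestine (common difference -2.84 ± 0.87, limma adjusted p = 0.0336). Its call was lost without either gallbladder organoid array, without any 1 of the 4 liver arrays, or without gallbladder tissue replicate 2 (adjusted p of 0.0643 to 0.0792). Endoplasmic reticulum stress can also raise ATF4 targets, and its part here was not tested. Of 11 genes of that response none was called in either direction by limma (3 had an unadjusted p under 0.05, 1 higher and 2 lower). Their median was -0.07, with 0.30 in gallbladder, -0.45 in liver and -0.10 in small intestine. With 6 group means 1 was higher and 2 were lower.

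Pathways that the medium acts on gave uneven results. ERK target genes, which rise with EGF, FGF and HGF receptor signalling, were higher in 10 of 15 cases and lower in none, with medians of 1.16 in gallbladder, 1.10 in liver and 0.41 in small intestine; 5 were called without the liver arrays. Dusp4, a phosphatase that ERK induces to limit itself, had 9.51, 9.80 and 9.99 in organoids, against 6.49, 7.56 and 7.94 in tissue, with no overlap (2.42 ± 0.21, limma adjusted p = 4.35e-05). Hbegf, a ligand of the EGF receptor, differed by 1.38, 3.06 and 0.30 in gallbladder, liver and small intestine, and Etv5, an ERK-induced factor, by 1.68, 0.79 and 1.41.

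Of 13 Wnt targets, 7 were called higher and 4 lower, so the list did not move as a whole. Ephb3, a receptor that positions cells along the crypt, differed by 1.67, 1.98 and 2.37 in gallbladder, liver and small intestine. Lgr5, a stem cell receptor for R-spondins, had 10.6 and 10.2 in gallbladder organoids against 6.54 and 7.90 in gallbladder tissue, 9.09 and 9.24 in liver organoids against 9.40 and 8.41 in liver tissue, and 12.6 and 12.4 in small intestine organoids against 8.75 and 8.74 in small intestine tissue. The liver arrays overlapped, the others did not, and the difference depended on the organ (interaction adjusted p = 0.00287). Among the lower members Nkd1, a feedback inhibitor of Wnt signalling picked after its values were seen, differed by -1.91, -1.04 and -0.47. The count of lower members was 2 without liver organoid replicate 2 and 2 without gallbladder tissue replicate 2.

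Of 11 targets of BMP signalling, which noggin blocks, none was called higher by limma, also at an unadjusted p under 0.05, and 1 lower, with medians of 0.23, 0.17 and -0.40 in gallbladder, liver and small intestine. Without the small intestine arrays 4 were called higher. The lower count was 2 without liver tissue replicate 1 and 0 without either gallbladder organoid array, gallbladder tissue replicate 2 or any 1 of the other 3 liver arrays. Nicotinamide and NAD genes were lower in 7 of 17 cases and higher in 1, and the lower ones were led by enzymes of the route from tryptophan to NAD. Kynu, Kmo and Haao, all enzymes of that route, differed by -4.61, -4.74 and -3.76 in gallbladder, by -6.92, -6.82 and -6.34 in liver, and by -1.27, -1.20 and -0.55 in small intestine. Nnmt, which methylates nicotinamide for excretion and was picked after its values were seen, differed by -2.67, -6.46 and -0.61. The count of lower genes was 3 without the gallbladder arrays and 2 without the liver arrays. These enzymes are abundant in hepatocytes, and gallbladder tissue replicate 2, with Kynu at 12.2 against 9.08 in replicate 1, also had the higher fibrinogen signal (Fgg 13.6 against 12.1). The part of hepatocyte RNA in these differences was not tested.

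**Figure D3:**
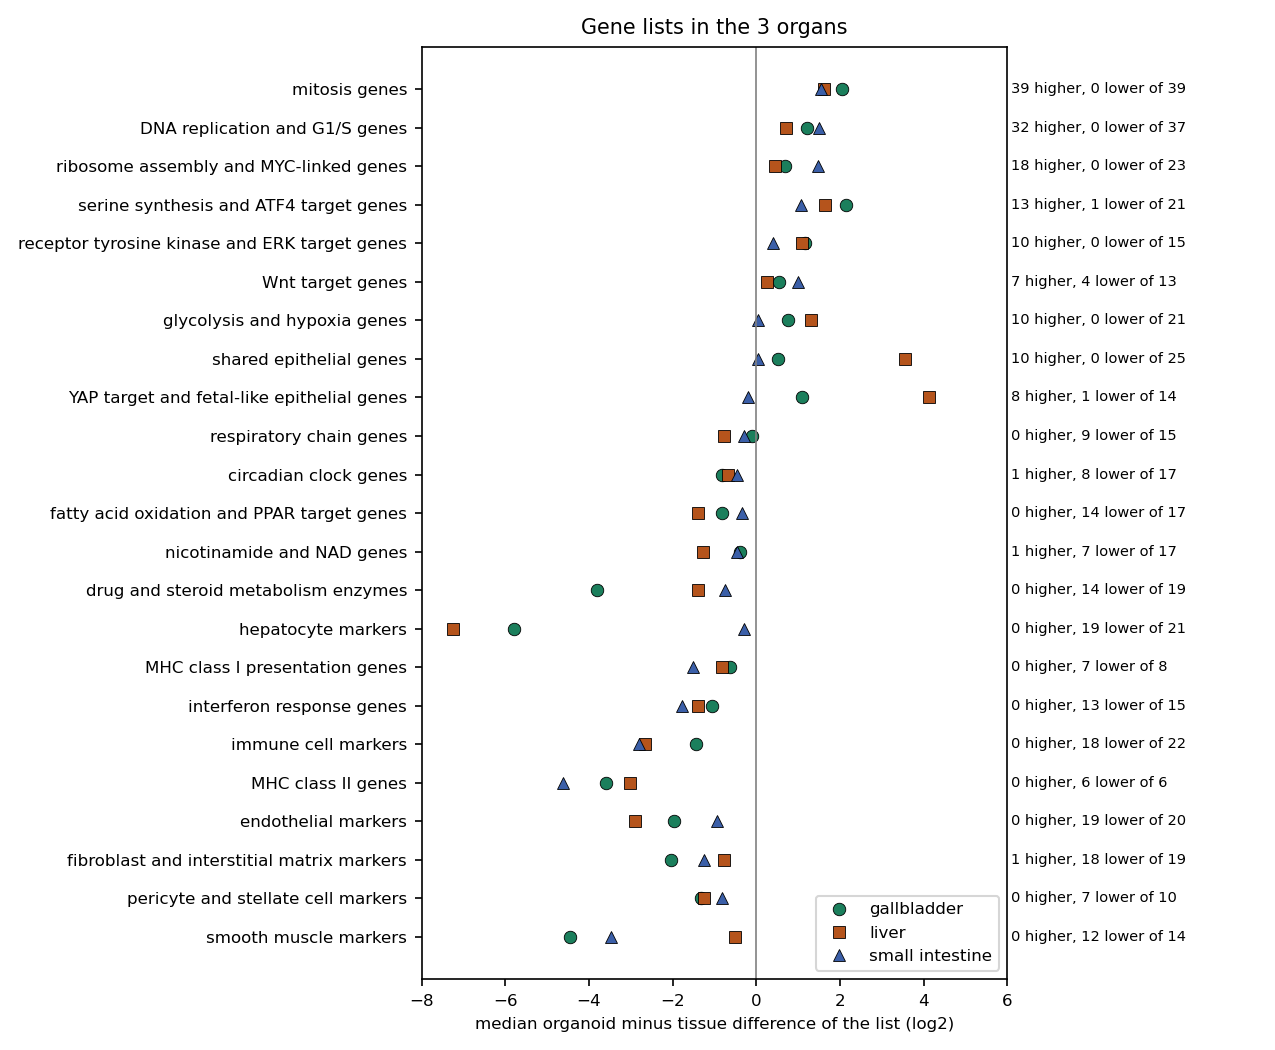
Median organoid minus tissue difference (log2, horizontal axis) of 23 gene lists in the 3 organs, with the number of members called in each direction at the right. Mitosis, replication and serine synthesis lists lie right of 0 in every organ, the lists of immune, endothelial and connective tissue cells lie left of 0 in every organ, and hepatocyte and shared epithelial genes differ widely between organs.

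Most markers of connective tissue, muscle, vessels and immune cells fell in organoids. In bulk samples, fewer cells of a type and less RNA per cell cannot be told apart. Of 19 fibroblast and interstitial matrix genes, 18 were called lower, where 10.7% of all genes were, and 1 was higher, with a median of -1.45. Dcn, which encodes the collagen-binding proteoglycan decorin, had 5.49, 5.64 and 5.92 in organoids, against 11.4, 12.3 and 13.0 in tissue, a difference of -6.62 ± 0.18 (limma adjusted p = 7.87e-08). The organoid arrays lay within 1 log2 unit of each other whatever the organ. Postn, periostin, and Dpt, dermatopontin, both matrix proteins of fibroblasts, differed by -4.40 ± 0.56 and -3.84 ± 0.29.

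Sparc, a calcium-binding matrix protein, had 7.03, 7.22 and 7.47 in organoids, against 11.3, 12 and 13.3 in tissue. The exception was Fbln2, fibulin 2, picked after its values were seen, at 1.88 in gallbladder, 2.15 in liver and -0.16 in small intestine. Col1a1, a chain of type I collagen, differed by -1.32 ± 0.18. Vim, the intermediate filament of mesenchymal cells, had 7.92 and 7.92 in gallbladder organoids against 13.8 and 13.6 in gallbladder tissue, and 10.4 and 10.0 in small intestine organoids against 11.8 and 11.7 in small intestine tissue, so that small intestine organoids lay nearest to their tissue (interaction adjusted p = 1.42e-05).

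Smooth muscle genes were lower in 12 of 14 cases, with medians of -4.46 in gallbladder and -3.48 in small intestine, both muscular organs, and -0.50 in liver; 6 were called without the gallbladder arrays. Acta2, smooth muscle actin, differed by -6.59, -2.20 and -5.43 in gallbladder, liver and small intestine, Des, desmin, by -6.10, -1.47 and -5.12, and Myh11, smooth muscle myosin, by -5.95, -0.82 and -4.57. Pericyte and stellate cell genes were lower in 7 of 10 cases and higher in none, led by Rgs5 at -4.25 ± 0.27, Abcc9 at -2.77 ± 0.22 and Reln at -2.56 ± 0.30. Endothelial markers were lower in 19 of 20 cases, with a median of -2.04, and 8 fell by 1 log2 unit or more in each organ. The vessel surface proteins Emcn, Eng and Cdh5 differed by -4.01 ± 0.27, -3.50 ± 0.34 and -3.37 ± 0.29, and Pecam1 had 6.16, 6.31 and 6.38 in organoids, against 8.34, 8.91 and 9.26 in tissue.

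Immune cell markers were lower in 18 of 22 cases and higher in none, and 13 of the 22 were lower by 1 log2 unit or more in every organ, against 1.72% of all genes. Ptprc, which encodes the leukocyte antigen CD45, had 6.21, 6.26 and 6.68 in organoids, against 8.12, 9.14 and 10.2 in tissue, with no overlap. C1qb, a complement gene of macrophages, differed by -4.06 ± 0.29, Mpeg1, a macrophage pore protein, by -3.78 ± 0.37, and Ly86, a partner of a toll-like receptor homologue, by -3.63 ± 0.30. The list's median was -1.44 in gallbladder, -2.66 in liver and -2.80 in small intestine, and 4 of its members were above 0 in gallbladder.

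All 6 MHC class II genes were called lower, with a median of -3.75. H2-Aa, a class II chain, had 5.19, 5.55 and 5.89 in organoids, against 10.0, 11.6 and 12.5 in tissue, and Cd74, the chain that escorts class II molecules, had 6.14, 6.33 and 6.62, against 10.7, 11.7 and 12.8. H2-Ab1 differed by -4.00, -3.79 and -5.64 in gallbladder, liver and small intestine. Class II genes are made by antigen-presenting cells and, under interferon gamma, by epithelium, so the cell of origin in the tissues was not resolved by these arrays.

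Interferon response genes were lower in 13 of 15 cases and higher in none, with a median of -1.30. Usp18, a protease that removes ISG15 and damps interferon signalling, had 6.96, 7.37 and 8.44 in organoids, against 8.65, 10.2 and 11.7 in tissue, without overlap (-2.58 ± 0.43, limma adjusted p = 0.00171). Rtp4 and Ifit3, both interferon-induced, differed by -2.21 ± 0.51 and -2.15 ± 0.53, with values for Ifit3 of -0.41 in gallbladder, -2.52 in liver and -3.53 in small intestine. MHC class I presentation genes, which all nucleated cells use, were lower in 7 of 8 cases with a median of -0.90. The immunoproteasome subunits Psmb8, Psmb9 and Psmb10, which cut peptides for class I molecules, differed by -2.06 ± 0.38, -1.40 ± 0.19 and -1.35 ± 0.15. The immune marker list moved in the same direction in every organ, with a mean signal of 6.27 to 6.73 in organoid arrays, against 7.83 to 9.62 in tissue arrays, and its part in the interferon and class I results was not tested.

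**Figure D4:**
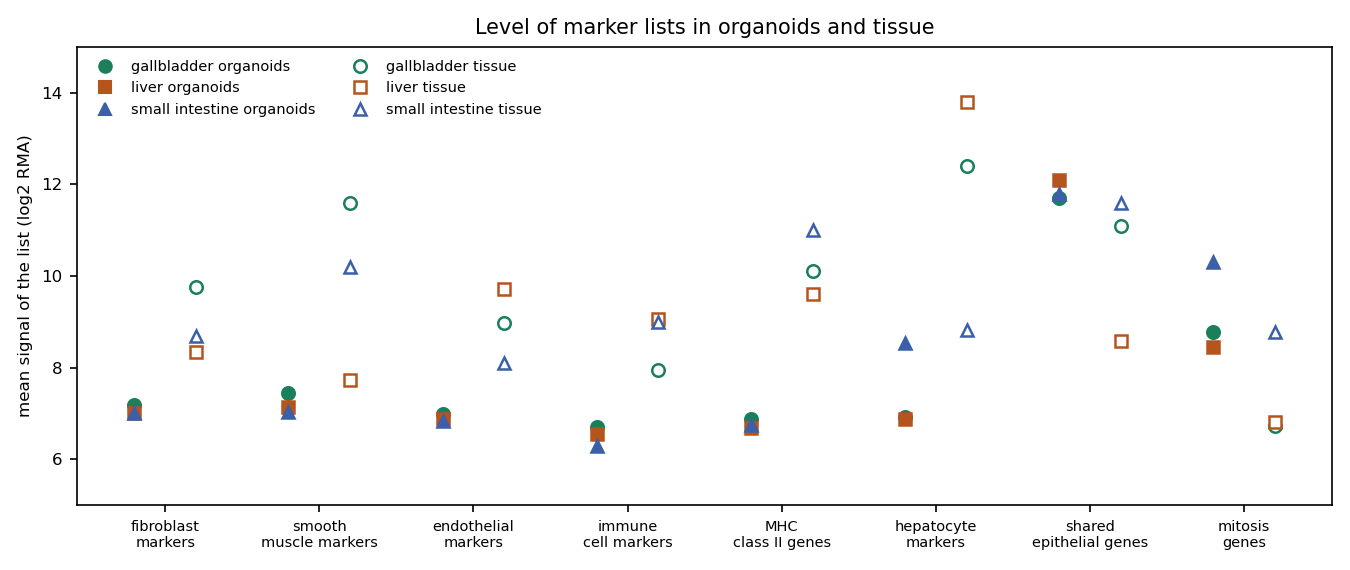
Mean RMA signal (log2, vertical axis) of 8 gene lists, with filled symbols for organoids at the left and open symbols for tissue at the right of each pair; each symbol is the mean of the 2 arrays of a group. Organoids of the 3 organs lie close together for the fibroblast, muscle, endothelial, immune and class II lists, hepatocyte markers stand at 12.4 in gallbladder tissue and 13.8 in liver tissue, and shared epithelial genes are low in liver tissue only.

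Adipocyte markers were lower in 5 of 6 cases, led by Fabp4, the fatty acid carrier of fat cells, at -3.70 ± 0.24 without overlap; 2 were called without the gallbladder arrays. Mesothelial markers were lower in 4 of 6 cases, with Upk1b, uroplakin 1B, at -1.50 ± 0.21, but Msln, mesothelin, was higher, at 3.9 in gallbladder, 5.09 in liver and 0.24 in small intestine (3.08 ± 0.67, limma adjusted p = 0.00709). Of 11 neural and glial markers none was called in either direction by limma (0 higher and 4 lower at an unadjusted p under 0.05; 2 and 4 called with 6 group means), and of 9 mast cell markers 1 was higher and 1 lower. The higher mast cell call was lost without gallbladder organoid replicate 2, liver organoid replicate 1 or either small intestine organoid array, and the count was 2 without small intestine tissue replicate 2. The lower one was lost without any 1 array other than that array and gallbladder tissue replicate 1. The 11 pancreatic acinar markers gave no call by limma, at an unadjusted p under 0.05 or with 6 group means. Their medians were 0.06, -0.03 and -2.72 in gallbladder, liver and small intestine. Their mean signal was 7.22, 6.76 and 9.72 in the tissues of these organs, and 7.65 in the highest organoid array. It reached 12.5 in 1 small intestine tissue array, on which the median of that organ largely rested.

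Hepatocyte markers fell in 19 of 21 cases, but this was a result of 2 organs: the median was -5.80 in gallbladder, -7.25 in liver and -0.29 in small intestine. Mean signals of the list were 6.93, 6.87 and 8.53 in gallbladder, liver and small intestine organoids, against 12.4, 13.8 and 8.83 in the tissues. Alb had 6.60 and 6.33 in gallbladder organoids and 6.36 and 6.04 in liver organoids, against 14.3 on all 4 arrays of both tissues. Fgg, a fibrinogen chain, and Ahsg, the liver plasma protein fetuin A, differed by -7.25 and -7.37 in gallbladder, -8.60 and -8.13 in liver, and -1.02 and -1.03 in small intestine. Their liver tissue signals of 13.8 to 14.4 are close to the upper end of the array's range, so the sizes are approximate. Without the liver arrays 6 of the 21 were called lower, and without the gallbladder arrays 2 were. Apoc3, an apolipoprotein of liver and gut that was picked after its values were seen, was lower in all 3 organs, at -6.14, -7.25 and -1.98.

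Among metabolic genes, some fell by several log2 units in small intestine too, where the median hepatocyte marker differed by -0.29 and the median adipocyte marker by -1.81. The part of hepatocyte and fat cell RNA in these falls was not tested. Pck1, the cytosolic enzyme that commits carbon to glucose synthesis, had 7.37, 7.85 and 9.03 in organoids, against 11.1, 13.2 and 14 in tissue, and its differences of -4.34, -6.06 and -3.82 showed no organ dependence past the threshold (interaction adjusted p = 0.187). Pck2, its mitochondrial counterpart, moved the other way, with 10.1, 10.4 and 10.8 in organoids, against 8.48, 8.93 and 9.21 in tissue (1.57 ± 0.13, limma adjusted p = 3.56e-05); it was picked after its values were seen. Neither gene's groups overlapped.

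Car3, carbonic anhydrase 3, had 5.71, 6.00 and 6.40 in organoids, against 9.39, 13.6 and 14.1 in tissue. Hsd17b6, a steroid and retinol dehydrogenase, differed by -5.55, -7.51 and -3.67 in gallbladder, liver and small intestine, and Serpina3n, a secreted protease inhibitor, by -5.14, -7.67 and -3.92. Both are highly expressed in liver, while Car3 is also a marker of fat and muscle, and the adipocyte, muscle and hepatocyte lists moved with them, whose part was not tested. Snord118, the U8 small nucleolar RNA that takes part in rRNA maturation, differed by -5.08, -4.72 and -4.29, and a second probe set of it by -4.70.

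Fatty acid oxidation and PPAR target genes were lower in 14 of 17 cases, with medians of -0.82, -1.40 and -0.33 in gallbladder, liver and small intestine, and none was higher. The count was 9 without gallbladder organoid replicate 2, liver tissue replicate 2 or either liver organoid array, and 8 without gallbladder tissue replicate 2; it was 6 without all gallbladder arrays and 5 without all liver arrays. Ppara, the receptor that drives fat burning in liver, differed by -2.85, -4.11 and -0.69, and Ppargc1a, a coactivator of mitochondrial genes, by -0.82, -3.09 and -2.19; its second probe set differed by -2.36. Respiratory chain genes were lower in 9 of 15 cases by less (median -0.43), with Sdhb at -0.99 ± 0.23 and Ndufs1 at -0.79 ± 0.18, and none of them was called by limma without the liver arrays, which leave 8 arrays.

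Drug and steroid metabolism enzymes were lower in 14 of 19 cases and higher in none, with medians of -3.81, -1.39 and -0.74 in gallbladder, liver and small intestine; 7 were called without the gallbladder arrays and 8 without the liver arrays. Cyp2d26, a cytochrome P450, stood at 13.2 on both small intestine organoid arrays, against 13.5 and 13.7 in small intestine tissue, but at 7.06 and 7.28 in gallbladder organoids, against 10.9 and 13.4 in gallbladder tissue. Hsd11b1, which reactivates glucocorticoids, differed by -3.82, -6.84 and -0.84, and Fmo1, a flavin monooxygenase, by -4.35, -5.88 and -0.50. Glycolysis and hypoxia genes were higher in 10 of 21 cases and lower in none, with medians of 0.77, 1.32 and 0.04; 5 were called without the gallbladder arrays and 4 without the liver arrays. Slc2a1, the glucose transporter GLUT1, differed by 1.99, 1.86 and 1.05, and Slc16a3, the lactate exporter MCT4, by 2.6, 3.53 and -0.03. Of 8 fatty acid synthesis genes 1 was called higher and 1 lower, with medians of -0.09, -1.02 and 0.79 in gallbladder, liver and small intestine. The lower count was 0 without any 1 array other than liver tissue replicate 1, small intestine organoid replicate 2 and either small intestine tissue array, and the higher count was 2 without liver tissue replicate 2. The higher gene, Scd2, a desaturase that makes monounsaturated fatty acids, had 12.6, 13.7 and 13.8 in organoids, against 8.03, 10.0 and 12.7 in tissue (3.06 ± 0.54).

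Shared epithelial genes were higher in 10 of 25 cases and lower in none, and the difference was mostly that of liver, with medians of 0.52, 3.56 and 0.05 in gallbladder, liver and small intestine. The count was 6 without liver tissue replicate 1, 6 without liver organoid replicate 1 and 5 without liver organoid replicate 2; it was 5 without all gallbladder arrays, 5 without all liver arrays and 16 without the small intestine arrays. Epcam, an adhesion protein of most epithelia that hepatocytes lack, had 12.3 to 12.6 on all organoid arrays, against 11.9 and 11.2 in gallbladder tissue, 7.11 and 7.0 in liver tissue and 13.0 and 12.7 in small intestine tissue. Krt19, a keratin of ducts and gut, had 13.1, 13.4 and 13.8 in organoids, against 7.29, 13.2 and 13.5 in tissue, and differed by 0.01, 6.41 and -0.09, so organoids of every organ carried these epithelial markers. Neither gene was called in the common comparison (limma adjusted p of 0.0734 for Epcam and 0.13 for Krt19). Esrp1, a regulator of epithelial splicing, was higher without overlap, at 0.98, 5.21 and 0.91.

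YAP target and fetal-like epithelial genes, raised in injured and cultured gut epithelium, were higher in 8 of 14 cases and lower in 1, with medians of 1.09, 4.14 and -0.20 in gallbladder, liver and small intestine; 4 were called higher without the gallbladder arrays and 4 without the liver arrays. Sprr1a, a cornified envelope precursor, differed by 5.63, 5.75 and 0.69, Il1rn, the interleukin 1 receptor antagonist, by 4.67, 3.51 and 1.75, and Krt7, a duct keratin, by 2.02, 5.69 and 1.01. The member called lower was Axl, a receptor kinase also found in mesenchymal and immune cells and picked after its values were seen, at -1.61 ± 0.12. Circadian clock genes were lower in 8 of 17 cases and higher in 1; the lower count was 5 without either small intestine organoid array, either liver organoid array or gallbladder tissue replicate 2. Hlf, a clock output factor, had 6.1, 6.36 and 6.53 in organoids, against 7.83, 8.89 and 9.66 in tissue. The hour of tissue collection is not in the labels, so time of day and culture cannot be told apart.

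Among 11 glucocorticoid targets and metallothioneins 3 were lower, among them Zbtb16, a glucocorticoid-induced factor, at -1.75, -1.03 and -2.72 in gallbladder, liver and small intestine; 5 were lower without liver tissue replicate 2. Of 14 hormone receptors 5 were lower and 2 higher, with Lepr, the leptin receptor, at -2.00 ± 0.22 without overlap. Cholesterol synthesis gave 2 higher and 1 lower of 20, NRF2 targets 4 higher and 3 lower of 18, immediate early genes 2 higher and 1 lower of 16, and heat shock genes 2 higher of 7. Of all genes 18.7% were higher and 10.7% lower, so these small counts are given only as description. Without single arrays the counts ranged over 2 to 6 higher and 1 to 3 lower for NRF2 targets, 0 to 4 higher for immediate early genes, 1 to 2 higher and 0 to 2 lower for cholesterol synthesis, and 3 to 6 lower for hormone receptors.

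In 529 genes the organs ran in opposite directions, each by at least 1 log2 unit and without overlap of the arrays in that organ. Of these genes 525 passed the interaction test, beside 50.3% of all genes. They were chosen for unlike organ differences on the same arrays, so passing was nearly fixed by the choice. The 6 with the smallest adjusted p were B4galnt2, Cyp4a12a, Sult2b1, Chst9, Ly6m and Myof. B4galnt2, a glycosyltransferase that builds the Sda blood group antigen, had 9.84 and 9.88 in gallbladder organoids against 13.4 and 13.1 in gallbladder tissue, and 12.7 and 12.5 in liver organoids against 6.56 and 6.37 in liver tissue. Its 12.8 on both small intestine organoid arrays lay just under the 13.5 and 13.3 of small intestine tissue. Cyp4a12a, a fatty acid hydroxylase, had 5.28 and 5.40 in gallbladder organoids against 12.6 and 13.2 in gallbladder tissue, and 8.28 and 8.47 in liver organoids against 5.73 and 5.74 in liver tissue.

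Ly6m, of the Ly6 family of surface proteins, was higher in organoids of gallbladder (3.04) and liver (2.39) and lower in those of small intestine (-5.41). Myof, a membrane repair protein, ran the same way at 2.06, 4.54 and -1.15. Sult2b1, a sulfotransferase of sterols, differed by -0.18, 2.37 and -3.27, and Chst9, a sulfotransferase of sugars, by -1.11, 3.39 and -0.23. The largest interaction adjusted p of these 6 genes was 1.54e-06 (limma, Myof), and they were chosen for small values of it.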

How the data were processed

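RNA of 12 arrays (Affymetrix GeneChip labelling, per the labels) was compared. The authors deposited log2 signals per probe set, made with RMA per the submitters' processing notes (background correction, quantile normalisation and probe set summary, by the method's name); settings and version are not given in the sources used here. RMA uses no detection call, so a low signal is not an absence, and arrays carry no read depth: their number, 2 a group, limits the precision.

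Of 35556 probe sets, 21789 have 1 symbol in GEO's platform annotation, 1621 several and 12146 are unlisted; the last 2 kinds were left out. For 999 genes with several probe sets the brightest on average was taken, which left 19938 genes. With limma 3.58.1 in R 4.3.3, log2 signals were fitted on organ and state (2-sided, Benjamini-Hochberg over all genes, threshold 0.05, 8 residual degrees of freedom); organ differences and the interaction came from a fit of 6 group means. In the common fit, differences between organs enter the error, which favours genes that moved alike. Tested on simulated data over the 19938 genes, the common comparison called 4 of 50 genes planted at 0.5, 50 of 50 at 1 log2 unit, and 6 unchanged genes. These planted genes had the same difference in every organ, and all genes of a group had the same noise. In the data 50.3% of genes depended on the organ, and noise differed between genes. These rates therefore do not carry over to the measured genes. Same-numbered arrays of an organ did not deviate together (r of -0.0124, -0.00315 and 0.0371), so numbers were not used as pairs. Between organs the largest values were 0.109 for small intestine and liver tissue and 0.0982 for small intestine and liver organoids.

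The members and gene lists were chosen with earlier results of these data known. Genes were named by rule: in each direction the 10 largest shared differences without overlap; the 6 strongest opposite-direction genes by interaction; up to 3 members a list with the largest difference; and a fixed panel of 10. The rule gives 143 genes; 96 are named, and 47, mostly of lists with few calls or with calls that rested on 1 array, were left out after their values were seen. Genes outside the rule are marked. Promoters are RefSeq's, of build GRCm38.p6. The alternatives are listed in the closing section. Tissue handling and array dates are not in the labels, so batches could not be tested.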

Additional observations from a re-analysis of the deposited data

Results flagged for a closer look

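The interaction test was passed by 79 of the 107 genes named in the report, beside 50.3% of all genes, most with 1 direction in unequal size. Named genes were mostly chosen by the size of their difference, and 6 by the interaction test itself, so this count partly reflects the choice. In 8 named genes the organs ran in opposite directions, and the span between the highest and the lowest organ difference was 10.17 log2 units for Cyp4a12a, 9.49 for B4galnt2, 8.45 for Ly6m, 5.69 for Myof, 5.63 for Sult2b1 and 4.5 for Chst9. It was 7.14 for Cdo1, which makes cysteine sulfinate and differed by -5.00 in gallbladder, -5.68 in liver and 1.46 in small intestine, and 6.47 for Sgk1, a glucocorticoid-induced kinase that differed by -1.75, 1.90 and -4.57 in the same order; both belong to the glucocorticoid list and neither was called in the common comparison.

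The 2 arrays of differentiated gallbladder organoids took no part in the comparison. For all 245 genes higher in undifferentiated organoids of all 3 organs, both of these arrays also lay above both gallbladder tissue arrays (median difference 1.67), and for 325 of the 342 lower genes both lay below (median -2.30). The gallbladder tissue arrays also took part in choosing these genes, so the direction is partly fixed by that choice. The share of all genes with the same order was not computed, so these counts are given only as description. The 17 lower genes without this order were named after their values were seen: Abcg2, Acy3, Agmo, Apobec1, Apol7a, Bco2, Cldn1, Cyp3a13, Cyp4f14, Dgat2, Dio1, Fabp2, Igfbp5, Nr1h3, Sgk2, Sult1b1 and Xkr9.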

How the results depend on the processing

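The main counts were 3728 higher, 2135 lower, 245 and 342 in all 3 organs, and 10022 with organ dependence. With 6 group means, where organ differences do not enter the error, 6450 genes were higher and 3718 lower; with 7 group means on 14 arrays the counts were 6725 and 3974. A minimum difference of 1 log2 unit in the call left 1056 higher and 1179 lower; it was not run for the interaction test, which has no single difference. Asking for 0.5 log2 units in each organ gave 1010 and 781 genes in all 3 organs, and 2 units gave 22 and 85. Organ dependence was found for 6170 genes without the gallbladder arrays and 5756 without the liver arrays. Counts stayed within 1.5 times the main one with quantile normalisation, median centring, the dimmest 40% of genes left out, averaged probe sets, differentiated organoids added, array weights, and an intensity trend with a robust prior. Leaving out the dimmest 40% placed the median difference of the remaining genes at 0.195. Leaving out 1 array at a time gave 3062 to 3809 higher, 1653 to 2227 lower, 221 to 269 and 306 to 384 in all 3 organs, and 7539 to 10593 with organ dependence. With the replicate number as a block, 3359 genes were higher and 1941 lower, and no named gene lost its call. The main fit did not use the numbers as pairs.

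Of 111 called genes that the naming rule gives outside its opposite-direction part, 15 lost their call without some 1 array; of these the report names only Cth. Of 97 named genes called, 74 kept call and direction under every alternative run; 19 lost it without the gallbladder arrays and 16 without the liver arrays, which leave 8 arrays, 2 without the small intestine arrays, and 2 with a minimum difference of 1 in the call. Krt19, not called, changed sign to -0.04 without the liver arrays, and Sgk1, not called, to 0.07 without the small intestine arrays.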

Other observations

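Families below were picked by gene symbol after the values were seen, and are given as counts with no test of the family. Ribosomal protein genes, the structural parts of ribosomes, were called higher in 50 of 61 cases and lower in none, beside 18.7% and 10.7% of all genes. Their medians were 0.53 in gallbladder, 0.48 in liver and 0.68 in small intestine. They are bright (median signal 12.36), and with the dimmest 40% of genes left out a larger share, 3433 of 11963 genes, was higher. Many have near-identical pseudogenes, so their signals are uncertain. Cytosolic aminoacyl-tRNA synthetases, which charge tRNAs with amino acids and are partly ATF4 targets, were higher in 12 of 16 cases and lower in none (median 0.91), against 4 of 16 for the mitochondrial ones (median 0.29).

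Zinc finger genes named Zfp were higher in 149 of 347 cases (99 without the liver arrays, 97 without the small intestine arrays) and lower in 7 (3 to 8 without single arrays, with 4 or fewer without gallbladder organoid replicate 2, liver organoid replicate 2 or liver tissue replicate 1), with medians of 0.21, 0.30 and 0.51 in gallbladder, liver and small intestine. Cytochrome P450 genes were lower in 32 of 87 cases and higher in 2, with medians of -1.37, -1.20 and 0.04; the lower count was 21 to 36 without single arrays (the lowest without liver organoid replicate 2), 10 without the gallbladder arrays and 7 without the liver arrays. Collagen genes were lower in 13 of 44 cases, beside 10.7% of all genes, and higher in none, with a median of -0.10. Kinesin genes were higher in 18 of 38 cases, beside 18.7% of all genes, and lower in 1. Of them 10 were higher by 1 log2 unit or more in every organ, beside 1.23% of all genes.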
